A study of Mus musculus with 15 samples.

Results

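The 10 genes described here are genes of cortical radial glia, the neural stem cells that line the ventricles of the embryonic forebrain, in RNA-Seq data from mouse brains: Pax6, Sox2, Vim, Nes, Fabp7, Hopx, Ptprz1, Emx1, Emx2 and Gli3. They are textbook markers of these cells, and the rule that names them uses no measured value. All 10 were among the 19475 genes of the deposited table, and all 10 were also among the 16507 tested, whose mean normalized read count over the embryos reached 5. A normalized read count is a Salmon estimate divided by a size factor of the embryo, so that embryos can be compared for a gene.

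The data come from 15 C57BL/6J embryos at E16.5 (the embryonic day), with 5 embryos in each of 3 genotypes. WT embryos carried no mutant allele, Tbr1+/K228E embryos were heterozygous for a knock-in of the K228E change in exon 1 of Tbr1, and Tbr1 K228E/K228E embryos were homozygous for it. As a knock-in, the change is in the germline and in every cell. The neomycin cassette of the allele had been removed with a protamine-Cre line. Each genotype had 3 females (replicates 1 to 3) and 2 males (replicates 4 and 5). The deposited description calls the tissue whole brain and the study's text also speaks of forebrain samples, and it is a mixture of cells in either case. In such a bulk sample, fewer progenitors and less RNA per progenitor cannot be told apart.

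Radial glia divide at the ventricle, renew themselves, and give rise to neurons either directly or through intermediate progenitors that express Eomes. Pax6 and Sox2 are transcription factors that keep the cells in the progenitor state, and Emx1, Emx2 and Gli3 are transcription factors of the dorsal telencephalon, Gli3 also being the main repressor of hedgehog target genes. Vim and Nes encode intermediate filaments of the long radial fibre, Fabp7 (also called Blbp) encodes a carrier of fatty acids, Ptprz1 encodes a receptor tyrosine phosphatase on the cell surface, and Hopx encodes a small homeodomain protein of outer radial glia and of neural stem cells. In the developing cortex Tbr1 follows Pax6 and Eomes in this sequence, and it is expressed in postmitotic glutamatergic neurons.

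RefSeq promoter windows of GRCm38.p6, from 250 bases before to 50 bases after a transcript start, were at hand for all 10 genes and gave 12 windows, since Pax6 and Hopx have more than 1 start. The stretch before the start that lies in no annotated exon is shown for 4 genes: Nes and Fabp7, which moved in opposite directions between embryos, and Pax6 and Sox2, which define the progenitor state. All 4 lie on the plus strand and read 5′ to 3′, and capitals mark a match to the core of the site that RBPJ, the DNA-binding partner of Notch, recognizes.
Nes, chr3:87970843-87971077: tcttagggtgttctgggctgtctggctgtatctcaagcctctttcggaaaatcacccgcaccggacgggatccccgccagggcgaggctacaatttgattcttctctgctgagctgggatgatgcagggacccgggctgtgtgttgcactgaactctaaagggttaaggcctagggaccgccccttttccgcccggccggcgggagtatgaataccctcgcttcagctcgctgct
Fabp7, chr10:57784673-57784880: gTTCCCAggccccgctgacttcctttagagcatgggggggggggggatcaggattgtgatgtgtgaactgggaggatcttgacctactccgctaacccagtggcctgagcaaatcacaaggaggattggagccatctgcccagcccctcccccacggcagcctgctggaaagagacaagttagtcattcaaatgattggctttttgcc
Pax6, chr2:105668646-105668895: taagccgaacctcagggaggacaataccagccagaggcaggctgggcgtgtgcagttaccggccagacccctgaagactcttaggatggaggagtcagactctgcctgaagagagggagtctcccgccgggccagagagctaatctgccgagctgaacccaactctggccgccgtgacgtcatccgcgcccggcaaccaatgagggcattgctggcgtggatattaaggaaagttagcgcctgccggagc
Sox2, chr3:34649745-34649994: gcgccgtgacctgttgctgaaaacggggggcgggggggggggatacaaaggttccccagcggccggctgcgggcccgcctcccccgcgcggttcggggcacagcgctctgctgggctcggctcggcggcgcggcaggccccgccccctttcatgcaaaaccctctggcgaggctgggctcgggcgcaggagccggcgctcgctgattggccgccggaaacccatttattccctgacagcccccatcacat

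A set of 3 short motifs was looked for on both strands of these windows, and none of them contains another. The T-box core GGTGTGA, the motif family that TBR1 binds, was in 0 of the 12 windows and in 3.98% of all 32851 promoter windows of the same length. The GLI core GACCACCCA was in 0 of the 12 windows and in 0.253% of all windows. The RBPJ core TGGGAA was in 2 of the 12 windows, those of Fabp7 (beginning 249 bases before the start) and Emx2 (95 bases before it), on the reverse strand in both, and in 25.6% of all windows. These are matches of letters and not measured binding.

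The labels were first checked with Tbr1, which lies on chromosome 2 of GRCm38 (61802930 to 61814114). Mean normalized reads of Tbr1 (± SD over 5 embryos) came to 3537 ± 1049 for WT, 6269 ± 1532 for heterozygous and 11366 ± 3160 for homozygous embryos. It was at 3517, 4122, 4871, 2097 and 3079 in WT replicates 1 to 5, 4738, 8543, 6337, 6743 and 4985 in heterozygous, and 11530, 7148, 16015, 10671 and 11467 in homozygous embryos. The mean was thus higher with each mutant allele, with a log2 difference from WT of 1.69 in the homozygous embryos (adjusted p = 0.00437, limma with Benjamini-Hochberg correction). These 2 groups did not overlap. Tbr1 did not pass in heterozygous against WT embryos (log2 difference 0.85, adjusted p = 0.999) or between the mutant genotypes (0.85, limma, adjusted p = 0.614), and the embryos overlapped in both comparisons. Of the 10 progenitor genes, Pax6 and Vim lie on the same chromosome as Tbr1, at distances of 43.9 and 48.2 Mb.

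The levels of the progenitor genes in WT brains spanned 2 orders of magnitude per kb of exon. Fabp7 stood highest, at 11956 ± 1311 normalized reads per kb (SD, n = 5), followed by Vim at 2105 ± 302 per kb. Sox2, at 1130 ± 152 per kb, and Ptprz1, at 1033 ± 121 per kb, came next, and their ranges over the WT embryos overlapped. Nes, at 768 ± 107 per kb, was below both without overlap with Ptprz1. Emx1 (235 ± 87.3 per kb), Emx2 (203 ± 30.2 per kb) and Hopx (191 ± 27.1 per kb) overlapped in this order. Pax6 and Gli3 were lowest, with 119 ± 15.9 and 119 ± 22.6 per kb, and could not be ordered. Exon length is the union of the annotated exons of a gene, so that genes with many or long isoforms, such as Pax6, are placed low by this scale.

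**Figure D1:**
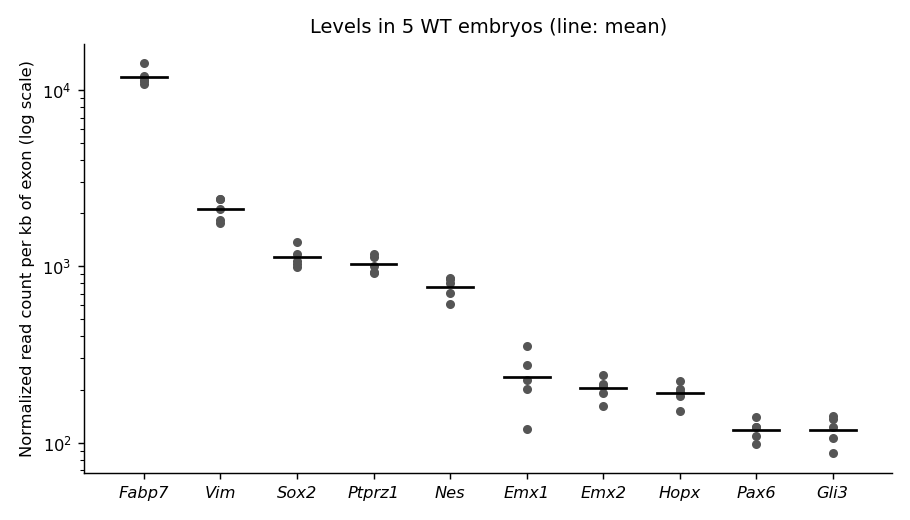
Normalized read count per kb of exon (log scale) of each progenitor gene in the 5 WT embryos (points) with the mean (line). Fabp7 had a mean of 11956 per kb, and Pax6 and Gli3 shared the lowest place.

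The question for the 2 mutant genotypes was whether the gene dosage of the mutant allele changes expression. No progenitor gene passed as upregulated or downregulated in Tbr1+/K228E or Tbr1 K228E/K228E brains, and none separated the embryos of any 2 genotypes. In limma, 0 of the 10 passed an adjusted p of 0.05 in Tbr1+/K228E against WT, where 0.0% of all tested genes passed. In Tbr1 K228E/K228E against WT it was again 0 of 10, against 0.127% of all tested genes, and between the mutant genotypes 0 of 10, against 0.0788%. At an unadjusted p of 0.05, limma also gave 0 of the 10 in each of these comparisons, where 1.79%, 3.23% and 3.3% of all tested genes fell below it. Since so few genes of the table passed, 0 of 10 lies near the background and is no result about these genes as a set. The median absolute log2 difference of the 10 genes was 0.05 in Tbr1+/K228E and 0.07 in Tbr1 K228E/K228E embryos against WT, beside 0.06 and 0.06 over all tested genes. Between the mutant genotypes it was 0.09, beside 0.06. Over the tested genes whose mean reached 50, as that of each of the 10 did, it was 0.047, 0.045 and 0.052 in this order.

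**Figure D2:**
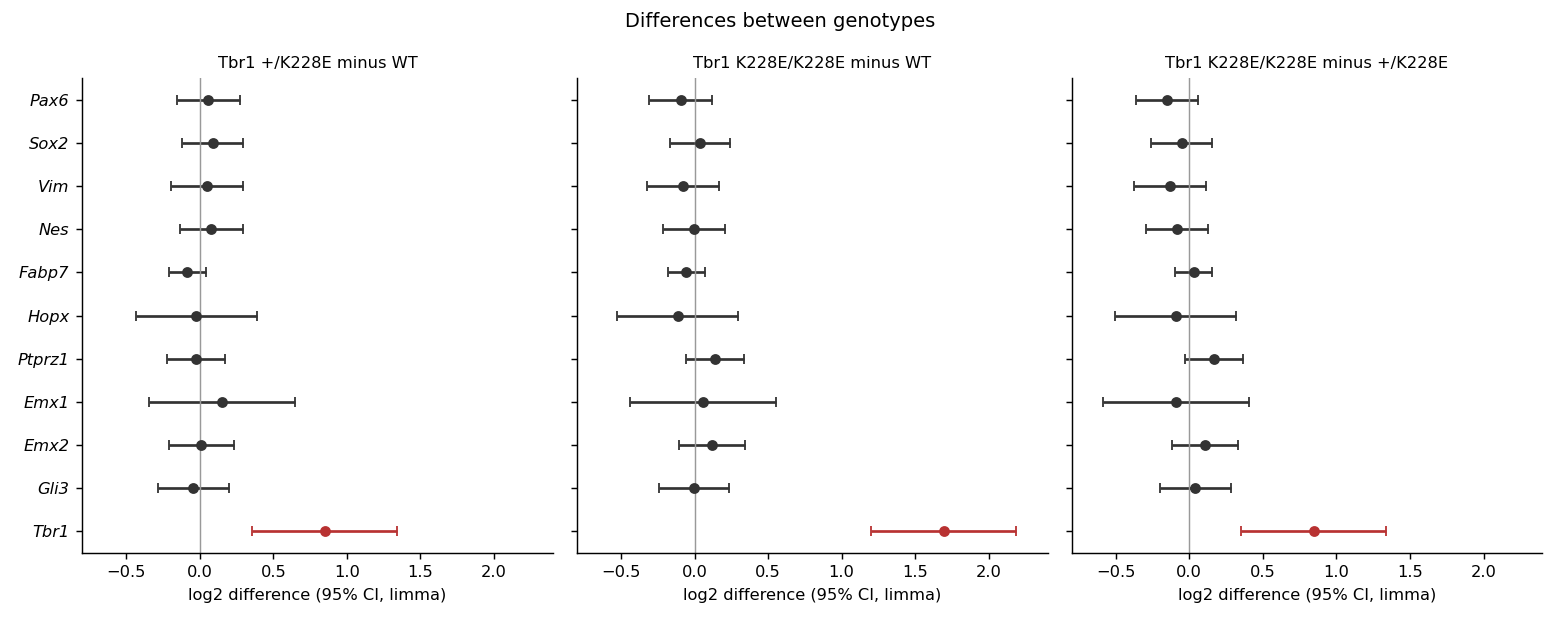
Log2 difference between genotypes (points) with the 95% confidence interval of limma (bars) for each progenitor gene and for Tbr1, from a fit of 15 embryos. All 30 intervals of the progenitor genes include 0, and those of Tbr1 do not.

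Pax6 (ENSMUSG00000027168, chromosome 2, 105668900 to 105697364 of GRCm38, plus strand) encodes the paired-box factor whose expression gives way to that of Eomes and Tbr1 as cells leave the ventricle. Its normalized read counts were 1438, 1441, 1635, 1277 and 1142 in WT replicates 1 to 5, 1347, 1440, 1382, 1525 and 1471 in Tbr1+/K228E, and 1433, 1008, 1458, 1291 and 1307 in Tbr1 K228E/K228E embryos. The 3 ranges overlapped, and the Tbr1 K228E/K228E embryos held the lowest value, in replicate 2. The log2 difference from WT was 0.06 (95% CI -0.16 to 0.27) in Tbr1+/K228E and -0.09 (95% CI -0.31 to 0.12) in Tbr1 K228E/K228E embryos. Between the mutant genotypes it was -0.15, the most negative difference of the 10 genes in that comparison (two-sided exact permutation test, p = 0.135).

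Sox2 (ENSMUSG00000074637, chromosome 3, 34650405 to 34652461, plus strand) is a factor of neural stem cells in general and is encoded by a single exon. It was at 2432, 2216, 2818, 2039 and 2121 normalized reads in WT, 2277, 2730, 2497, 2288 and 2506 in Tbr1+/K228E, and 2564, 2012, 2848, 2298 and 2214 in Tbr1 K228E/K228E embryos. The highest and the lowest value of all 15 embryos were both in the homozygous group. The log2 differences from WT were 0.09 (95% CI -0.12 to 0.29) and 0.04 (95% CI -0.17 to 0.24), and that of Tbr1 K228E/K228E from Tbr1+/K228E embryos was -0.05 (95% CI -0.26 to 0.16).

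The intermediate filament genes were Vim (ENSMUSG00000026728, chromosome 2, 13573927 to 13582826, plus strand) and Nes (ENSMUSG00000004891, chromosome 3, 87971078 to 87980451, plus strand). Vim, also expressed in endothelial and meningeal cells, was at 11409, 11376, 10050, 8743 and 8338 normalized reads in WT, 10421, 10295, 11258, 8783 and 10662 in Tbr1+/K228E, and 11485, 8668, 8709, 7705 and 10790 in Tbr1 K228E/K228E embryos. Nes was at 5189, 5460, 5537, 3937 and 4502 in WT, 4702, 5654, 5323, 4790 and 5391 in Tbr1+/K228E, and 5490, 4212, 5318, 4299 and 5200 in Tbr1 K228E/K228E embryos. For both genes, values near the top and near the bottom of the range occurred within WT and within homozygous embryos. The log2 difference between Tbr1 K228E/K228E and WT embryos was -0.08 (95% CI -0.32 to 0.16) for Vim and -0.003 (95% CI -0.22 to 0.21) for Nes.

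Fabp7 (ENSMUSG00000019874, chromosome 10, 57784881 to 57788450, plus strand) varied least of the 10 genes, and its differences are bounded most closely. It was at 14217, 14174, 13578, 17729 and 15029 normalized reads in WT, 14697, 13194, 14082, 13861 and 14339 in Tbr1+/K228E, and 14306, 13901, 14909, 14726 and 13743 in Tbr1 K228E/K228E embryos. One WT embryo, replicate 4, stood above all others, and the 10 mutant embryos lay between 13194 and 14909. The log2 difference from WT was -0.09 (95% CI -0.21 to 0.04) in Tbr1+/K228E and -0.06 (95% CI -0.18 to 0.07) in Tbr1 K228E/K228E embryos. Against Tbr1+/K228E embryos the homozygous embryos differed by 0.03 (95% CI -0.10 to 0.16).

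Ptprz1 (ENSMUSG00000068748, chromosome 6, 22875502 to 23052916, plus strand) had the largest difference of the 10 genes in Tbr1 K228E/K228E against WT embryos and against Tbr1+/K228E embryos. Its normalized read counts were 13006, 13268, 16188, 14259 and 16849 in WT, 13432, 15433, 14208, 14684 and 14111 in Tbr1+/K228E, and 15257, 12980, 18970, 17408 and 16699 in Tbr1 K228E/K228E embryos. The homozygous group held the highest 2 values and also the lowest one, so that the groups overlapped. The log2 difference was 0.14 against WT (95% CI -0.06 to 0.34, two-sided exact permutation test, p = 0.278) and 0.17 against Tbr1+/K228E (95% CI -0.03 to 0.37, exact permutation p = 0.143). The SD of Ptprz1 within genotypes was 0.16 on the log2 scale, above the difference from WT and just below that from Tbr1+/K228E embryos, and both intervals include 0.

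Hopx (ENSMUSG00000059325, chromosome 5, 77086988 to 77115121, minus strand) was at 307, 279, 340, 294 and 228.3 in WT, 409, 305, 297, 210 and 233 in Tbr1+/K228E, and 384, 182, 270, 261 and 266 in Tbr1 K228E/K228E embryos. Of the range of Hopx over all embryos, from 182 to 409, the Tbr1+/K228E embryos alone covered 210 to 409 and the homozygous ones 182 to 384. The log2 difference of Tbr1 K228E/K228E from WT embryos was -0.11 (95% CI -0.53 to 0.30), one of the widest intervals of the 10 genes.

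The factors of the dorsal telencephalon were Emx1 (ENSMUSG00000033726, chromosome 6, 85187438 to 85204462), Emx2 (ENSMUSG00000043969, chromosome 19, 59458372 to 59465357) and Gli3 (ENSMUSG00000021318, chromosome 13, 15463235 to 15730026), all on the plus strand. Emx1 was at 439, 602, 773, 260 and 496 normalized reads in WT, 441, 635, 569, 526 and 531 in Tbr1+/K228E, and 559, 356, 681, 457 and 521 in Tbr1 K228E/K228E embryos. WT embryos alone covered the whole range of Emx1, from 260 to 773, and the mutant values lay inside it. Emx2 was at 573, 625, 644, 481 and 727 in WT, 556, 580, 621, 586 and 713 in Tbr1+/K228E, and 555, 751, 659, 655 and 680 in Tbr1 K228E/K228E embryos. The log2 difference of Tbr1 K228E/K228E from WT embryos was 0.06 (95% CI -0.44 to 0.55) for Emx1 and 0.12 (95% CI -0.10 to 0.34) for Emx2. Gli3 was at 1172, 1308, 1358, 832 and 1012 in WT, 995, 1199, 1084, 1043 and 1115 in Tbr1+/K228E, and 1233, 1076, 1034, 1022 and 1236 in Tbr1 K228E/K228E embryos. Both mutant groups of Gli3 lay within the WT range, and the log2 difference of Tbr1 K228E/K228E from WT embryos was -0.003 (95% CI -0.24 to 0.24).

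**Figure D3:**
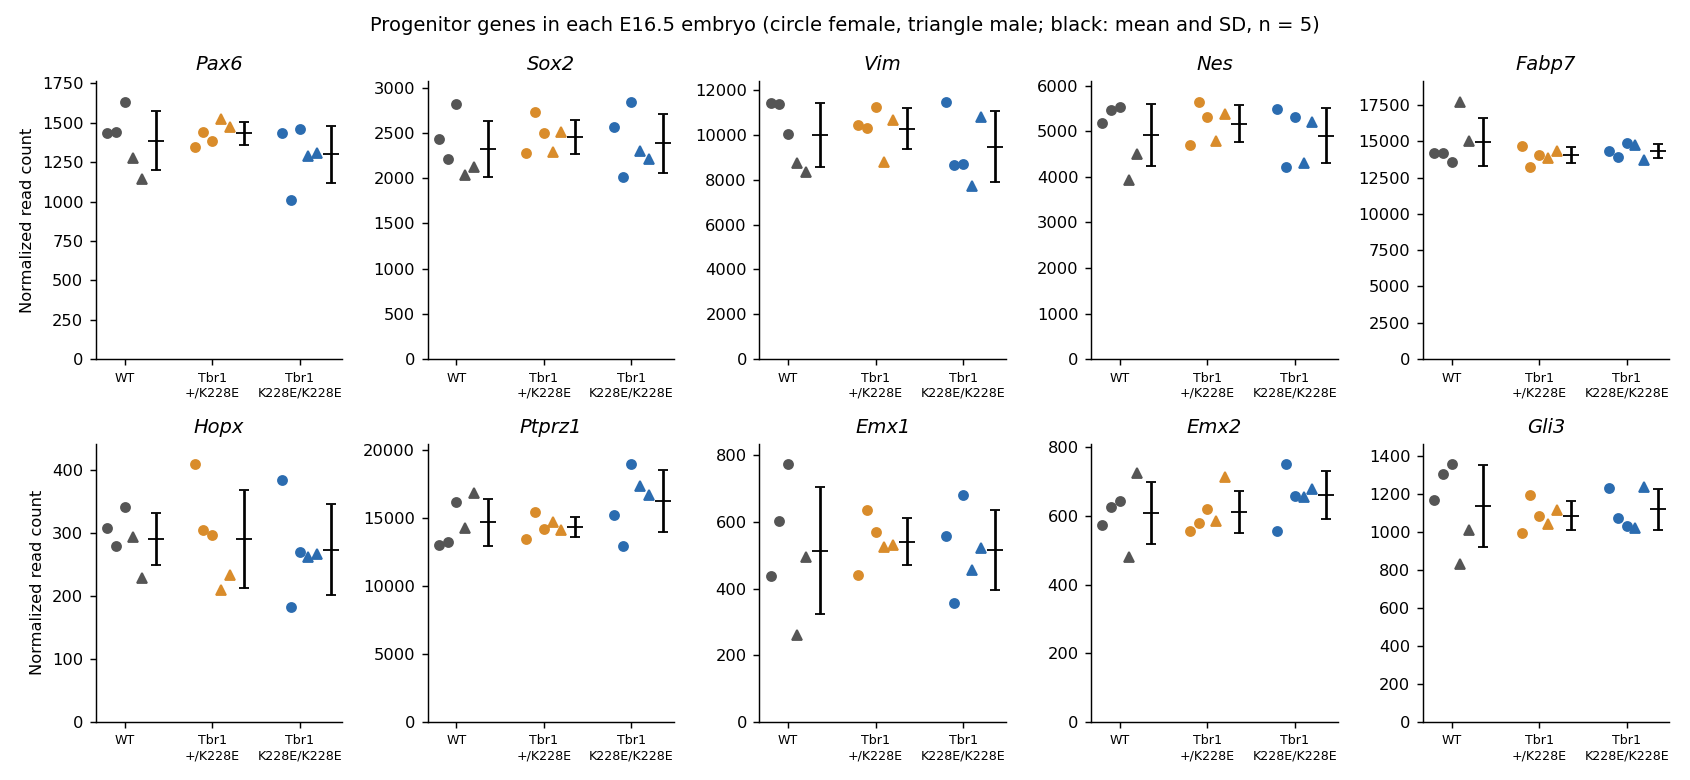
Normalized read count of each progenitor gene in each embryo by genotype (circles, females; triangles, males) with the mean and SD (black, n = 5). The 3 genotypes overlap for every gene, with Emx1 and Hopx widest and Fabp7 narrowest.

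The smallest exact permutation p over the 10 genes was 0.310 in Tbr1+/K228E against WT, 0.278 in Tbr1 K228E/K228E against WT and 0.135 between the mutant genotypes, where 0.00794 is the smallest that 5 against 5 embryos allow. No gene separated 2 genotypes without overlap, as 0.26%, 0.594% and 0.878% of all tested genes did. When the number of mutant alleles (0, 1 or 2) was fitted as a number, 0 of the 10 passed in limma, against 0.0727% of all tested genes, and 0 had an unadjusted p under 0.05, against 3.29%. The slopes per allele ran from -0.06 for Hopx to 0.07 for Ptprz1 on the log2 scale, beside 0.85 for Tbr1.

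The other lists of genes did not pass in any comparison of genotypes either (limma with Benjamini-Hochberg correction, 0 genes in each of 16 lists). Of 28 other radial glia genes, 10 had a positive and 18 a negative sign in Tbr1 K228E/K228E against WT embryos, with a median log2 difference of -0.03 and 0 with an unadjusted p under 0.05. In Tbr1+/K228E against WT embryos 9 were positive and 19 negative, with a median of -0.03 and 1 with an unadjusted p under 0.05. In Tbr1 K228E/K228E against WT embryos, Lifr, a cytokine receptor subunit, had the smallest p of this list. It was at 947 ± 164 normalized reads in WT, 852 ± 70.2 in Tbr1+/K228E and 1067 ± 61.6 in Tbr1 K228E/K228E embryos (SD, n = 5). Between the mutant genotypes Lifr differed by 0.33 on the log2 scale, which missed the threshold (limma, adjusted p = 0.843).

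The hedgehog pathway acts through Gli3. Of its 13 listed genes, 11 had a negative sign in Tbr1 K228E/K228E against WT embryos, with a median log2 difference of -0.09, while 9 had a positive sign in Tbr1+/K228E against WT embryos, with a median of 0.03. None (0) had an unadjusted p under 0.05 in limma in either comparison. Hhip and Ptch1, which restrain the pathway and are also its targets, had log2 differences of -0.50 and -0.10 in Tbr1 K228E/K228E against WT embryos. In Tbr1+/K228E against WT embryos these were -0.43 and -0.04. Gli1, a target and activator, was at 262 ± 60.6 in WT and 211 ± 44.9 normalized reads in Tbr1 K228E/K228E embryos (SD, n = 5), a log2 difference of -0.31. Of 14 other dorsal patterning genes, such as Dmrta2 and Nr2f1, 8 had a positive and 6 a negative sign against WT in each mutant genotype. The median was 0.01 in Tbr1 K228E/K228E and 0.05 in Tbr1+/K228E embryos.

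Of the 10 intermediate progenitor genes, 6 had a positive and 4 a negative sign in Tbr1 K228E/K228E against WT embryos, with Mfap4 and Sstr2 at -0.42 and -0.23 and Hes6 at 0.06, and 7 had a positive and 3 a negative sign in Tbr1+/K228E against WT embryos. All 28 cell-cycle genes had a positive sign in Tbr1+/K228E against WT embryos, with a median log2 difference of 0.11, and 25 of 28 had a negative sign in Tbr1 K228E/K228E against WT embryos, with a median of -0.09. These genes move together from embryo to embryo, and 0 of the 28 had an unadjusted p under 0.05 in either comparison. Tyms, Cenpf and Kif20b had the smallest p of the list in Tbr1 K228E/K228E against WT embryos, with log2 differences of -0.11, -0.24 and -0.20.

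Of 12 projection neuron genes, 10 had a positive and 2 a negative sign in Tbr1 K228E/K228E against WT embryos. Their median log2 difference was 0.05. In Tbr1+/K228E against WT embryos 8 were positive and 4 negative, with a median of 0.09. Among them, Fezf2, a factor of deep-layer neurons, was at 1400 ± 478 in WT, 1625 ± 316 in Tbr1+/K228E and 2157 ± 561 in Tbr1 K228E/K228E embryos (SD, n = 5). Its log2 difference of 0.66 between homozygous and WT embryos had an unadjusted p of 0.0137 in limma and did not pass correction. This was the 1 gene of the 12 under 0.05 in that comparison, beside 3.23% of all tested genes.

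Embryos of a genotype differed from each other by more than the genotype means did. Emx1 was 2.97 times as high in the highest as in the lowest of the 15 embryos, Hopx 2.25 times, and the other 8 genes between 1.34 (Fabp7) and 1.63 times (Gli3). The median SD of the 10 genes within genotypes was 0.174 on the log2 scale, beside 0.123 for the 13542 tested genes whose mean reached 50. The coefficient of variation was lower in Tbr1+/K228E than in WT embryos for 9 of the 10 genes, the exception being Hopx, with medians of 7.76% in Tbr1+/K228E, 14.1% in WT and 13.7% in Tbr1 K228E/K228E embryos. These spreads were not tested against each other, and the 10 genes share their embryos.

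A pair of embryos held the lowest value for 8 of the 10 genes. WT replicate 4 was the lowest of all 15 for Nes, Emx1, Emx2 and Gli3, and the highest for Fabp7. Tbr1 K228E/K228E replicate 2 was the lowest for Pax6, Sox2, Hopx and Ptprz1, and the highest for Emx2. A cell-cycle score, taken as the mean over 28 genes on the log2 scale, was lowest in these embryos, at 9.51 in WT replicate 4 and 9.48 in Tbr1 K228E/K228E replicate 2, against 9.66 to 10.33 in the others. At the other end, WT replicate 3 was the highest for Pax6, Emx1 and Gli3, with a cell-cycle score of 10.28.

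The makeup of the samples also differed. The summed normalized reads of 17 Hox genes, which mark hindbrain and spinal cord, were between 259.6 and 3963 in 6 embryos (WT replicates 1, 2 and 4, Tbr1+/K228E replicate 1, and Tbr1 K228E/K228E replicates 1 and 2) and between 3.00 and 59.7 in the other 9. A meningeal score, the mean over 13 genes on the same scale, was between 4.72 and 5.04 in 3 embryos (WT replicate 3 and Tbr1 K228E/K228E replicates 3 and 4) and between 7.52 and 9.71 in the other 12, and 1 of the 13 genes, Twist1, was listed at 0 in an embryo. WT replicate 4, with the lowest Emx1, Emx2 and Gli3, was among the embryos with high Hox sums, at 3286. Since the embryos form separate clusters by these measures, their correlations over all embryos, computed among 60 relations with scores, are not read. Leaving out the 6 embryos with high Hox sums, a step added after the data were examined, left only replicates 3 and 5 of WT. It also left Tbr1+/K228E replicates 2 to 5 and Tbr1 K228E/K228E replicates 3 to 5. In that fit 0 of the 10 genes passed in any comparison of genotypes. The share of all tested genes with an unadjusted p under 0.05 in that fit is not given here, so the background of such a p is left unstated. Among the comparisons of genotypes, Ptprz1 alone of the 10 fell below 0.05. Its log2 difference was then -0.18 in Tbr1+/K228E against WT embryos (unadjusted p = 0.0171, adjusted p = 1.0) and 0.28 between the mutant genotypes (unadjusted p = 0.000607, limma, adjusted p = 0.401), in place of -0.03 and 0.17. The difference of Emx1 between Tbr1 K228E/K228E and WT embryos was then -0.18 in place of 0.06. Without the 3 embryos with few meningeal transcripts, 0 of the 10 passed and 0 had an unadjusted p under 0.05 in the comparisons of genotypes. For that fit, too, the share of all tested genes is not given here.

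Most of the progenitor genes followed the cell-cycle genes across embryos. Over 15 embryos and 60 relations (10 genes with 6 scores, Benjamini-Hochberg correction over all 60), 7 genes were correlated with the cell-cycle score at an absolute r of at least 0.613. Of all tested genes outside the score, 22.3% reached that absolute r, 10.3% with a positive and 11.9% with a negative sign. Nes followed it most closely, with r = 0.954 and rho = 0.943 (permutation p = 1e-05 for both, the smallest that 100000 resamples can give, adjusted p = 0.0003 for r). Pax6 (r = 0.794, rho = 0.646), Emx1 (r = 0.791, rho = 0.764), Vim (r = 0.763, rho = 0.675), Sox2 (r = 0.761, rho = 0.682) and Gli3 (r = 0.761, rho = 0.789) were also positive, with adjusted permutation p of at most 0.0398 for both measures. Fabp7 was negative (r = -0.613, adjusted permutation p = 0.0353), although its rank correlation did not pass (rho = -0.568, adjusted permutation p = 0.0982). Ptprz1 and Emx2 were at r = 0.01 and -0.14.

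The relations of Nes, Pax6, Sox2, Vim, Emx1, Gli3 and Fabp7 with the cell-cycle score kept their sign without the 2 embryos farthest from the median score, where r was 0.924, 0.702, 0.599, 0.778, 0.565, 0.759 and -0.701. Within the 9 embryos with low Hox sums r was 0.936 for Nes, 0.704 for Pax6, 0.757 for Sox2, 0.778 for Vim, 0.749 for Emx1, 0.727 for Gli3 and -0.781 for Fabp7. As deviations from the genotype means, Nes was at r = 0.959 and Gli3 at 0.840.

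**Figure D4:**
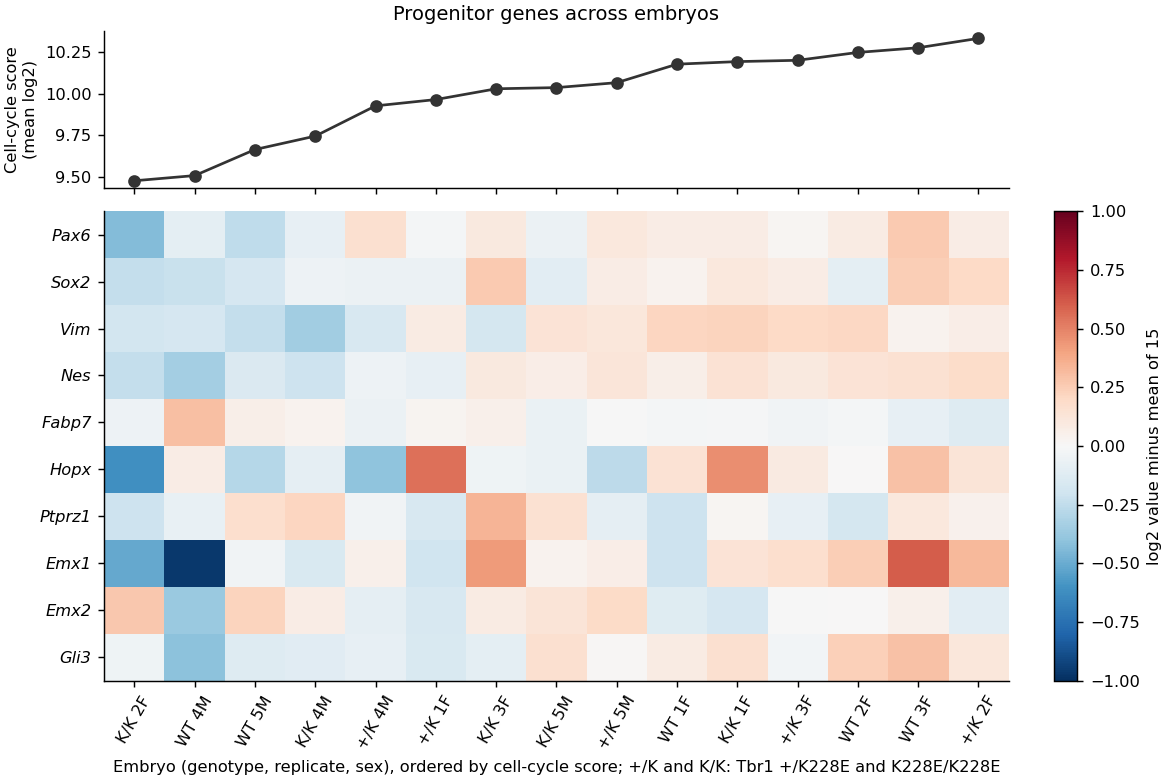
Cell-cycle score of each embryo (top, mean log2 of 28 genes) and the log2 value of each progenitor gene minus its mean over 15 embryos (bottom, colour), with embryos ordered by the score. Nes, Sox2, Vim and Pax6 go from blue to red with the score, Fabp7 does not, and Emx1 is lowest in WT replicate 4.

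The intermediate progenitor score (mean log2 of 10 genes, among them Eomes and Neurog2) gave 7 genes as well, at an absolute r of at least 0.654, which 17.4% of all tested genes outside the score reached. Nes (r = 0.960, rho = 0.911) and Emx1 (r = 0.871, rho = 0.846) were closest to it, with adjusted permutation p of 0.0003 and 0.00075 for r. Gli3 (r = 0.793), Sox2 (r = 0.727), Pax6 (r = 0.720) and Vim (r = 0.697) were positive with adjusted permutation p of at most 0.0184 for r, while rho passed for Gli3, Sox2 and Pax6 and not for Vim (adjusted permutation p = 0.0982). Fabp7 was at r = -0.654 (adjusted permutation p = 0.0227), which rests on the embryos at the ends of the score, since r was -0.295 without the 2 farthest and rho did not pass (adjusted permutation p = 0.185). Without the 2 farthest embryos r was 0.924 for Nes and 0.835 for Emx1, and within the 9 embryos with low Hox sums it was 0.951 and 0.829.

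**Figure D5:**
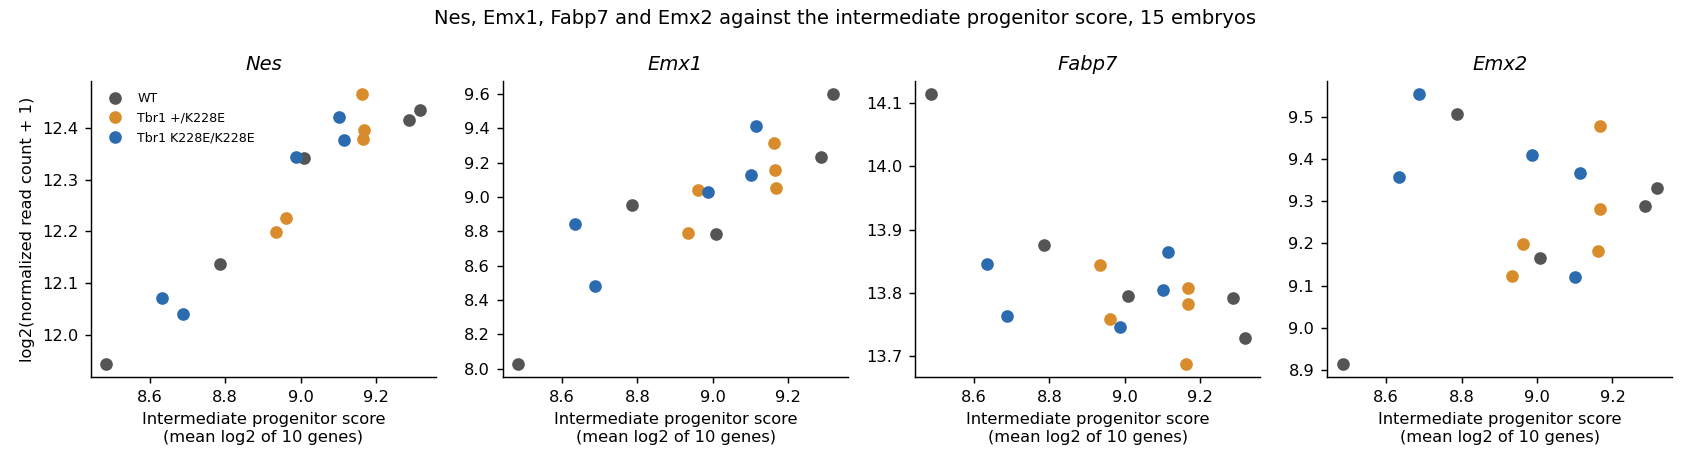
Log2(normalized read count + 1) of Nes, Emx1, Fabp7 and Emx2 (y) against the intermediate progenitor score (x) in 15 embryos, coloured by genotype. Nes and Emx1 rise with the score in embryos of all 3 genotypes, Fabp7 is highest in WT replicate 4 at the lowest score, and Emx2 shows no trend (r = 0.12).

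With the projection neuron score (mean log2 of 12 genes, such as Neurod6), Emx1 (r = 0.891, rho = 0.804), Sox2 (r = 0.774, rho = 0.725), Ptprz1 (r = 0.686, rho = 0.718) and Nes (r = 0.635, rho = 0.546) were positive, with adjusted permutation p of 0.0006, 0.0054, 0.0184 and 0.036 for r, and rho of Nes did not pass (adjusted permutation p = 0.105). An absolute r of at least 0.635, the weakest of these 4, was reached by 15.5% of all tested genes outside the score. Without the 2 farthest embryos r was 0.836, 0.641, 0.631 and 0.472. Within the 9 embryos with low Hox sums it was 0.726 for Emx1, 0.700 for Sox2, 0.526 for Ptprz1 and 0.323 for Nes. Vim was the single gene correlated with the score of endothelial cells and pericytes (r = 0.632, rho = 0.668, adjusted permutation p of 0.0366 and 0.03), and r was 0.652 without the 2 farthest embryos. This 1 gene of 10 stands beside 11.2% of all genes outside that score with an absolute r at least as large. Within the 12 embryos with more meningeal transcripts Vim was at r = 0.619 with that score and at 0.699 with the meningeal score, given as a description.

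Between the progenitor genes, deviations from the genotype means had a positive r in 32 of 45 pairs, with a median of 0.305 over the 15 embryos. Gli3 and Nes (r = 0.857), Nes and Emx1 (r = 0.853), and Pax6 and Sox2 (r = 0.787) were closest. Fabp7 and Gli3 were most opposed (r = -0.897), and Fabp7 had a median r of -0.414 with the other 9 genes. The paralogs Emx1 and Emx2 were at r = 0.328. These values describe samples that share their tissue makeup.

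The genes outside the list most like each progenitor gene, by r of the same deviations over 15 embryos and among 13539 genes whose mean reached 50, were as follows. Emx1 was most like Neurog2 (r = 0.986) and Eomes (r = 0.985), Nes most like Oip5 (r = 0.980) and Npm1 (r = 0.972), Gli3 most like Btg2 (r = 0.961) and Tcf3 (r = 0.943), and Pax6 most like Kif4 (r = 0.963) and Akt1 (r = 0.948). Sox2 was most like Dlx5 (r = 0.934) and Dlx6 (r = 0.922), neighbouring genes of ventral forebrain neurons, and Vim most like Mmp14 (r = 0.945) and Smo (r = 0.937). Fabp7 was most like Hcn2 (r = 0.940) and Prrt2 (r = 0.935), Hopx like Igsf11 (r = 0.911) and Rab4a (r = 0.877), and Emx2 like Ddx27 (r = 0.896) and Zc3h7a (r = 0.850). Of the genes most like Ptprz1, Zfp704 had an r of 0.911.

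Sex was the other grouping in the labels, with 9 females and 6 males. With genotype in the fit, 7 of the 10 genes had a negative sign in males and 0 passed in limma, against 0.0788% of all tested genes. Vim had the one unadjusted p under 0.05 (0.0457, adjusted p = 0.450), where 11.0% of all tested genes fell below it. None of the 10 separated males from females, as 0.151% of all tested genes did. Vim was between 7705 and 10790 normalized reads in males (median 8763) and between 8668 and 11485 in females (median 10421), with a log2 difference of -0.19 (95% CI -0.37 to -0.004). The differences of Hopx (-0.28) and Emx1 (-0.28) were larger but so was their spread. The median Hox sum was 259.6 in females and 8.90 in males. Without the 6 embryos with high Hox sums, 4 of the 10 had an unadjusted p under 0.05 in limma, and Vim was not among them. They were Sox2 (0.00276), Emx1 (0.00284), Hopx (0.0108) and Nes (0.0317), with a smallest adjusted p of 0.284. The share of all tested genes in that fit is not given here. In the fit of all embryos, all 28 cell-cycle genes were lower in males by sign, with a median log2 difference of -0.30. An unadjusted p under 0.05 in limma was reached by 16 of the 28, beside 11.0% of all tested genes, and 0 passed correction. The cell-cycle genes move together from embryo to embryo, so these 16 are not independent. With the cell-cycle score in the fit the sign changed for Nes, Gli3, Pax6 and Emx1, to 0.01, 0.0008, 0.09 and 0.06. The other genes, among them Vim, Hopx and Sox2, kept their sign, and the cause was not tested. A test of whether the genotype difference varied with sex found 0 of the 10 genes past the threshold in limma, against 0.0% of all tested genes in both mutant genotypes. An unadjusted p under 0.05 was found for 2 of the 10 in Tbr1+/K228E (Gli3, 0.0177, and Pax6, 0.0399) and for 2 of the 10 in Tbr1 K228E/K228E embryos (Gli3, 0.0126, and Fabp7, 0.0338), in limma, beside 6.7% and 6.46% of all tested genes. With 2 males and 3 females a genotype, both terms use the same WT embryos, so they are not independent. One of the 2 WT males, replicate 4, had the lowest Gli3 (832) and the highest Fabp7 (17729) of all embryos.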

How the data were processed

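RNA-Seq libraries (TruSeq RNA, paired-end reads) of 15 embryos were quantified by the authors with Salmon 0.11.2 (quasi-mapping to GRCm38, corrected for GC bias), imported with tximport, and normalized with DESeq2 1.22.2 in R 3.5.3. The deposited unit is a signal, namely the authors' estimated counts divided by size factors, and whole reads could not be recovered. No count model was fitted for that reason, and the depth of each library is unknown. Log2 values of embryos of a genotype correlated with r between 0.977 and 0.987. Nothing in the labels says that embryos of a genotype came from separate litters, and p-values measure the spread between these embryos.

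Genotype, replicate number and sex came from the labels. Of the genes, 19469 were matched to GENCODE M21 by identifier. Differences were fitted in limma 3.58.1 under R 4.3.3 (eBayes with a trend) on log2(value + 1), with all 15 embryos in a fit, for genes whose mean reached 5, with Benjamini-Hochberg correction and a threshold of 0.05, and the fitting was tested on simulated data. A log2 difference on this scale understates changes of low genes. Single genes were compared with a two-sided exact permutation test, and correlations with 100000 permutations, in numpy 2.4.6. A score is the mean log2(value + 1) of a list. The promoter letters are RefSeq sequences.

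The members and lists were chosen with earlier results of these data known. The text names all 10 members, Tbr1, up to 3 genes per other list (those past the threshold or, failing that, those with the smallest p in Tbr1 K228E/K228E against WT embryos), and the 2 genes most like each member. Eomes, Neurog2, Neurod6 and Twist1 are named besides as list members. Some genes that this rule picks are not reported here. Settings tried instead were pseudocounts of 0.1 and 10, a filter at a mean of 50, no filter, upper quartile rescaling, quantile normalization, sex, the replicate number, the tissue scores or the cell-cycle score in the fit, robust eBayes, the 2 compared genotypes alone, an empirical null fitted to the central 75% of the statistics, and leaving out each embryo. Fits without 6 embryos with summed Hox values over 200 and without 3 embryos with a meningeal score under 6 were added after the data were examined.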

Additional observations from a re-analysis of the deposited data

How the results depend on the processing

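The result that 0 of the 10 progenitor genes passed the threshold held in limma in every alternative of the 5 comparisons, leaving out each embryo included, with a smallest adjusted p of 0.933 in Tbr1+/K228E against WT embryos, 0.935 in Tbr1 K228E/K228E against WT embryos, 0.401 between the mutant genotypes, 0.940 for the allele dose and 0.0733 for males against females. The 95% intervals of single genes between genotypes had half-widths from 0.127 (Fabp7) to 0.495 (Emx1) on the log2 scale, with a median of 0.219, and a difference smaller than a gene's own half-width could not be told from 0 with 5 embryos a group. Signs of differences did change, in 52 of 710 alternative values, none past the threshold, and the cause was not tested. With the cell-cycle score in the fit the sign changed for Tbr1+/K228E against WT (Pax6 -0.00149, Vim -0.0147), Tbr1 K228E/K228E against WT (Nes 0.0429, Gli3 0.0419), the mutant genotypes (Sox2 0.0417, Nes 0.0367, Fabp7 -0.0155, Hopx 0.0371, Emx1 0.143), allele dose (Nes 0.0212, Gli3 0.0182), males against females (Pax6 0.0941, Nes 0.00910, Emx1 0.0634, Gli3 0.000774). After quantile normalization the sign changed for Tbr1+/K228E against WT (Hopx 0.0137). With the Hox and meningeal scores the sign changed for Tbr1+/K228E against WT (Hopx 0.10, Emx1 -0.0181, Emx2 -0.0779), Tbr1 K228E/K228E against WT (Sox2 -0.0106, Emx1 -0.0704), the mutant genotypes (Fabp7 -0.00478), allele dose (Sox2 -0.00523, Emx1 -0.0352), males against females (Emx2 -0.00792). Without the 3 embryos with few meningeal transcripts the sign changed for Tbr1+/K228E against WT (Hopx 0.0372, Ptprz1 0.00898, Gli3 0.0259), Tbr1 K228E/K228E against WT (Vim 0.0544, Nes 0.0602, Gli3 0.146), the mutant genotypes (Fabp7 -0.00456), allele dose (Vim 0.0289, Nes 0.0358, Gli3 0.0700). Without the 6 embryos with high Hox sums the sign changed for Tbr1+/K228E against WT (Emx1 -0.135, Emx2 -0.134), Tbr1 K228E/K228E against WT (Sox2 -0.00411, Fabp7 0.0165, Emx1 -0.182, Emx2 -0.0411), the mutant genotypes (Hopx 0.0450, Gli3 -0.0209), allele dose (Sox2 -0.00520, Fabp7 0.0130, Emx1 -0.0872, Emx2 -0.0102), males against females (Ptprz1 -0.0529). After upper quartile rescaling the sign changed for Tbr1 K228E/K228E against WT (Nes 0.000363, Gli3 0.000271), allele dose (Nes 0.000182, Gli3 0.000135). On leaving out an embryo, 23 of 50 differences changed sign, with log2 differences over these fits for Tbr1+/K228E against WT (Pax6 -0.0106 to 0.119, Vim -0.0118 to 0.106, Hopx -0.156 to 0.0833, Ptprz1 -0.0700 to 0.0234, Emx1 -0.0723 to 0.320, Emx2 -0.0708 to 0.0775, Gli3 -0.151 to 0.0259), Tbr1 K228E/K228E against WT (Sox2 -0.0290 to 0.109, Nes -0.0811 to 0.0492, Fabp7 -0.0892 to 0.00701, Hopx -0.248 to 0.0210, Emx1 -0.164 to 0.228, Gli3 -0.110 to 0.0664), the mutant genotypes (Sox2 -0.117 to 0.00857, Hopx -0.224 to 0.0448, Emx1 -0.201 to 0.0323), allele dose (Sox2 -0.0104 to 0.0503, Nes -0.0422 to 0.0268, Fabp7 -0.0417 to 0.00452, Hopx -0.120 to 0.00914, Emx1 -0.0826 to 0.106, Gli3 -0.0512 to 0.0335), males against females (Emx2 -0.0140 to 0.127).

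The number of all tested genes past the threshold was 21 in Tbr1 K228E/K228E against WT embryos, and it was 12 with these genotypes alone, 42 with the empirical null, 2 without the 6 embryos with high Hox sums, 7 without the 3 with few meningeal transcripts, and 12 to 21 on leaving out an embryo. Between the mutant genotypes it was 13, and 3 and 0 without those 6 and 3 embryos, and 6 to 8 on leaving out an embryo. For the allele dose it was 12, and 26 with the empirical null, 1 and 0 without those embryos, and 4 to 12 on leaving out an embryo. For males against females it was 13, and 7 with the empirical null, 52 with the Hox and meningeal scores, 8 without the 6 embryos, and 10 to 24 on leaving out an embryo.

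Same-numbered embryos of different genotypes share a number and a sex. Their deviations from the genotype means correlated with r between -0.23 and 0.51. Between WT and Tbr1 K228E/K228E embryos all were positive, from 0.02 to 0.51. The labels do not say whether same-numbered embryos share a litter or a batch, and these r cannot decide it. The main fits did not pair them. With the replicate number as a block, the counts were 16 genes in Tbr1 K228E/K228E against WT embryos, 2 between the mutant genotypes, 7 for the allele dose and 0 in Tbr1+/K228E against WT embryos, and 0 of the 10 progenitor genes in each. As deviations from the genotype means, r of the scores read in the text moved most for Ptprz1 with the cell-cycle and intermediate progenitor scores (0.16 and 0.15) and for Pax6 with the endothelial score (-0.34).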

Other observations

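Several other cell populations of the samples had lists of their own, and none of their genes passed in a comparison of genotypes (limma with Benjamini-Hochberg correction). All 6 oligodendrocyte precursor genes had a negative sign in Tbr1 K228E/K228E against WT embryos, with a median log2 difference of -0.17, among them Pdgfra at -0.20, Gpr17 at -0.19 and the proteoglycan gene Cspg4 at -0.16. Of 9 astrocyte genes 8 had a negative sign, with Gja1, a gap junction gene, at -0.58, Apoe at -0.25 and S100b at -0.59. Of 12 endothelial and pericyte genes 11 had a negative sign, with Flt1 at -0.14, Pdgfrb at -0.18 and Anpep at -0.87. Of 7 microglia genes 6 did, with C1qa at -0.35, Csf1r at -0.29 and C1qb at -0.24. In Tbr1+/K228E against WT embryos the negative signs were 5 of 6 for oligodendrocyte precursor, 8 of 9 for astrocyte, 3 of 12 for endothelial and pericyte and 4 of 7 for microglia genes. In each of these 4 lists 0 genes had an unadjusted p under 0.05 in either comparison.

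Meninges, hindbrain and spinal cord (Hox genes), midbrain and cerebellum, choroid plexus, and eye and retina had lists as well. Of 13 meningeal genes 11 had a negative sign in Tbr1 K228E/K228E against WT embryos, with a median log2 difference of -0.78 and with Col1a1 at -1.96, Twist1 at -1.12 and Foxc1 at -0.57. Of 14 tested Hox genes 13 did, with a median of -1.52, among them Hoxd4 at -1.86, Hoxb4 at -2.17 and Hoxc4 at -2.33. All 8 midbrain and cerebellar genes did, with Atoh1 at -2.01, Pax2 at -1.12 and Fgf8 at -0.45. Of 7 choroid plexus genes 5 did, with Ttr at -0.45, Prlr at -0.10 and Otx2 at -0.10. Of 6 genes of the eye and retina 4 had a positive sign, with Rax at 0.76, Crx at 0.84 and Tyr at 0.18. In Tbr1+/K228E against WT embryos, 12 of the 13 meningeal genes had a positive sign, with a median of 0.39, and 4 of the 7 choroid plexus genes, with a median of 1.04. There 12 of the 14 Hox genes and all 8 midbrain and cerebellar genes were negative, with medians of -1.79 and -0.80, and 5 of the 6 genes of the eye and retina were positive, with a median of 0.42. In these 5 lists 0 genes had an unadjusted p under 0.05 in Tbr1 K228E/K228E and 1, of the eye and retina, in Tbr1+/K228E against WT embryos. It was Crx, with a log2 difference of 1.61 (unadjusted p = 0.00339, limma, adjusted p = 0.999). Crx was at 5.00 ± 2.00 normalized reads in WT and 22.0 ± 18.4 in Tbr1+/K228E embryos (SD, n = 5). The study lists it as upregulated in heterozygous embryos.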
